A study of Mus musculus with 192 samples.

Results

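The response of dendritic cells to PAM and LPS given together was compared with the response to PAM alone and to LPS alone. The comparison rests on 9 libraries, 3 each of the groups PAM, LPS and PAM + LPS, out of a series of 64 groups of 3. It was fitted over all 64 groups so that the spread between replicates was estimated from all of them. The cells were bone marrow-derived dendritic cells (BMDCs), antigen-presenting cells grown from marrow of female C57BL/6J mice aged 6 to 8 weeks in medium with 15 ng/mL of the growth factor GM-CSF. All groups used here shared that culture: 100000 cells were plated per well, rested overnight and kept for 6 hours with the ligand or ligands, or without any in the 3 libraries of Ctrl. Doses were not used here. A second set of 9 libraries, PAM + HMW, LPS + HMW and PAM + LPS + HMW, served as a separate view of the same pair with a further ligand present, which the labels name only HMW. Nothing in the labels says that the replicates came from separate cultures or animals, so p-values measure a spread between libraries that may be technical. That spread was estimated over all 64 groups. P-values and standard errors therefore need not reflect a wider spread within a single group, such as the pair.

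LPS, lipopolysaccharide of Gram-negative bacteria, is sensed by TLR4, which signals through the adaptor MyD88 from the cell surface and through the adaptor TRIF from endosomes. PAM is the abbreviation commonly used for synthetic lipopeptides that are sensed by TLR2 and signal through MyD88. The MyD88 branch is known for NF-kB and MAP kinase activation and inflammatory cytokines, and the TRIF branch for IRF3, type I interferon and the interferon-stimulated genes that follow. The comparison asks which ligand sets the level of a gene when both are present, and which genes exceed or fall below what either ligand gives.

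The measure was the number of UMIs (unique molecular identifiers, which mark single cDNA molecules) of each gene, and levels are given as CPM, counts scaled to a common library total. Totals ran from 116312 to 333995 UMIs in the 9 libraries and from 61823 to 89530 in Ctrl, and 4720 of 23481 genes were tested. Of 10 markers of dendritic cells 9 were detected, and their summed level was 3334 to 3569 CPM with PAM, 3506 to 3641 with LPS and 3654 to 4365 with the pair. Every pair library thus lay above every single-ligand library in that sum, and its part in the results was not tested. Means with PAM, LPS and the pair were 1775, 1793 and 2043 CPM for H2-Ab1 and 891, 1013 and 1212 for Cd74. Those of Ccr7 were 309, 448 and 559, while Itgax went the other way at 474, 279 and 240. Batf3 and Dpp4 reached at most 19.6 and 7.18 CPM in these means. Cd209a was at 0 and Flt3, Zbtb46 and Ciita were at or near 0. The macrophage and monocyte markers Lyz2, Csf1r and Cd14 were detected in every library. The summed level of that marker list was 11623 to 12412 CPM with PAM, 9056 to 9200 with LPS and 8966 to 10167 with the pair, and its part in the results was not tested. The lists for basophils or mast cells and for plasmacytoid dendritic cells were at 5.03 to 11.1 and 10.1 to 61.1 CPM with PAM, 11.1 to 127 and 134 to 188 with LPS, and 74.8 to 91.1 and 109 to 305 with the pair, there nearly all from the single genes Hdc and Tcf4. The defining markers Fcer1a and Ms4a2 of the former were at 0. Of 9 neutrophil markers with a row in the file, Mpo and Elane were at 0 and the other 7, S100a8 and S100a9 among them, were detected. Their summed level was 870 to 1011 CPM with PAM, 931 to 1184 with LPS and 759 to 1112 with the pair, and its part in the results was not tested. Markers of B cells, T or NK cells and erythroid cells were at or near 0, with at most 14.2 CPM in any of these libraries. In bulk RNA, fewer cells of a type and less RNA per cell cannot be told apart.

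Replicate 1 of the pair lay apart from its group. Its correlation over the tested genes was 0.907 with replicate 2 and 0.915 with replicate 3, against 0.952 between those, and it was 0.892 to 0.909 with the LPS libraries. Replicate 1 was the shallowest library of every group compared here, at 144331 UMIs with PAM and 133379 with LPS. Replicate 1 of the pair had 116312 UMIs against 218685 and 333995 in the other pair libraries. Among the 513 genes that were higher with LPS than with PAM it was the lowest of the 3 pair libraries for 364 (71.0%), against 43.8% of all tested genes. Among the 252 genes higher with PAM it was the highest for 117 (46.4%), against 31.9% of all. Results are therefore given with and without it where they rest on it.

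Far fewer genes separated the pair from LPS than from PAM. Against PAM, 1118 genes (23.7% of those tested) passed an adjusted p under 0.05 with a log2 fold change of at least 1 in either direction, the rule for a call used throughout. Of these 683 (14.5%) were higher and 435 (9.22%) lower with the pair. Against LPS, 83 genes (1.76%) were called, 65 (1.38%) higher and 18 (0.381%) lower. The counts of listed genes are read against these shares of all tested genes. The single ligands differed from each other in 765 genes (16.2%). Without pair replicate 1 there were 1128 calls against PAM and 120 against LPS, and without pair replicate 3 there were 49 against LPS. The split into higher and lower depended on the scaling: with library size alone, which moved the median of all genes by -0.30 against PAM and -0.19 against LPS on the log2 scale, 517 genes were higher and 784 lower than with PAM, and 37 higher and 39 lower than with LPS. Against Ctrl, 656 genes (13.9%) were called with PAM, 1143 (24.2%) with LPS and 1537 (32.6%) with the pair.

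**Figure D1:**
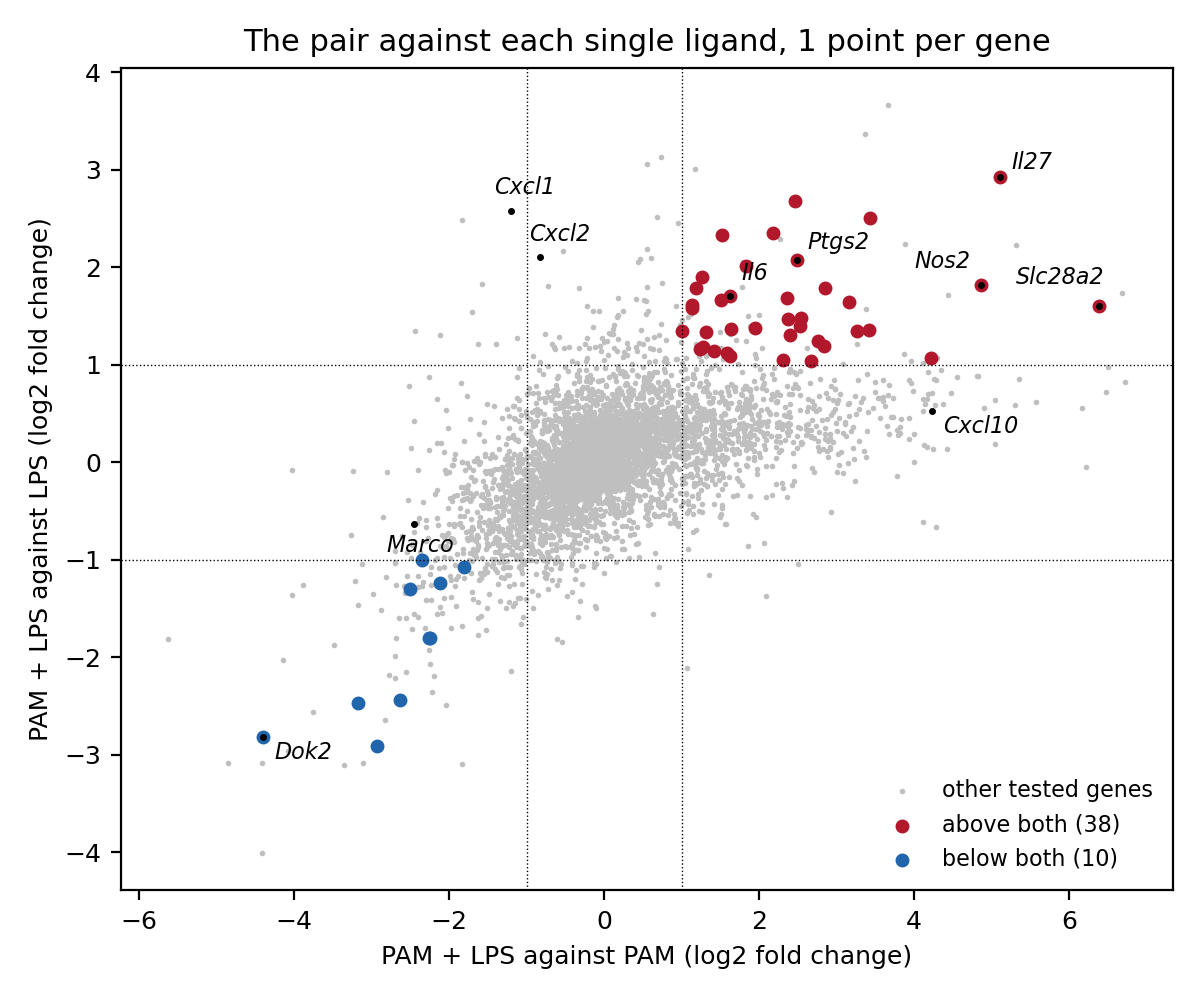
Log2 fold change of the pair against PAM (horizontal) and against LPS (vertical) for each of the 4720 tested genes, with dotted lines at a log2 fold change of 1 in either direction. Most genes spread along the horizontal axis, and the 38 genes above both single ligands (red) and 10 below both (blue) lie in opposite corners.

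Genes of the interferon response stood at or above the LPS level. All 15 listed genes, among them the antiviral effectors Ifit1, Rsad2 and Mx1 and the chemokine Cxcl10, were higher with the pair than with PAM, with a median log2 fold change of 3.82 against -0.08 over all genes tested. None of the 15 was called against LPS by edgeR or DESeq2, where the median was 0.36 against 0.04 over all genes; 11 had an unadjusted p under 0.05 by edgeR, and 6 (Ifit2, Isg15, Isg20, Irf7, Usp18 and Cxcl10) an adjusted p under 0.05 at less than the fold threshold. Among 15 tested genes of interferon signalling, 6 were higher and 1 lower with the pair than with PAM (14.5% and 9.22% of all tested genes), and 3 (Irf8, Socs1 and Socs3) were higher than with LPS (1.38% of all). Ifit1, which binds viral RNA, was at 218 ± 29.1 CPM in Ctrl (mean ± SD, n = 3), 295, 382 and 356 with PAM, 3528, 3935 and 3991 with LPS and 4091, 5471 and 5080.2 with the pair. Every LPS and pair library lay above every PAM library, and the pair libraries lay above the LPS libraries. The log2 fold change of Ifit1 was 3.82 ± 0.17 (SE) against PAM (adjusted p = 5.6e-56) and 0.36 ± 0.13 against LPS (adjusted p = 0.12).

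Cxcl10, a chemokine that attracts T cells, was at 305, 511 and 336 CPM in Ctrl, 486, 598 and 589 with PAM, 6774, 7493 and 7647 with LPS and 8456, 10877 and 12153 with the pair. It exceeded LPS by 0.53 ± 0.16 on the log2 scale (adjusted p = 0.039), under the fold threshold of a call. Rsad2, which encodes the antiviral enzyme viperin, was at 800.4, 824 and 783 CPM with PAM, 7593, 8635 and 9141 with LPS and 7636, 11476 and 11742 with the pair. Its pair and LPS libraries overlapped, and the difference between them was 0.29 ± 0.15 (adjusted p = 0.35). Mx1, an antiviral GTPase, differed from LPS by 0.15 ± 0.12 (adjusted p = 0.62). Without pair replicate 1, the interferon median against LPS was 0.53, and again none of the 15 genes was called.

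Of 13 tested genes for T cell costimulation and maturation, 7 were higher with the pair than with PAM, where 14.5% of all tested genes were, and 6 were not called. None was called against LPS by edgeR or DESeq2, where 1.76% of all were (2 of the 13 were without pair replicate 1), with 5 at an unadjusted p under 0.05 and 3 (Cd40, Slamf7 and Cd69) at an adjusted p under 0.05 by edgeR. Cd40, the receptor through which T cells signal to dendritic cells, was at 387, 372 and 322 CPM with PAM, 1489, 1591 and 1535 with LPS and 2169, 2735 and 2443 with the pair. The pair libraries were the highest, by 0.68 ± 0.14 over LPS (adjusted p = 1.8e-04), again under the fold threshold. Cd274, which encodes the inhibitory ligand PD-L1, was at 538, 493 and 539 CPM with PAM, 1831, 1724 and 1727 with LPS and 1439.7, 2201 and 2120.0 with the pair, where the LPS and pair libraries overlapped. Cd86, Cd83, Cd69 and Slamf7 also rose over PAM, by 1.67, 1.88, 3.39 and 2.97 on the log2 scale.

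Of 15 tested chemokine genes outside the inflammatory list, 8 were higher with the pair than with PAM and 2 were lower, where 14.5% and 9.22% of all tested genes were. Against LPS, where 1.76% of all were called, Ccl4 was the 1 called (2 genes were without pair replicate 1), and Ccrl2 and Cxcl3 had an adjusted p under 0.05 at less than the fold threshold, where of the pair libraries of Cxcl3 only replicate 1 lay above the LPS libraries. Ccl5, which recruits T cells and monocytes, was at 5144, 4660.4 and 5500.4 CPM with PAM, 27252, 25211 and 28623 with LPS and 29468, 32242 and 35948 with the pair, which exceeded PAM by 2.67 ± 0.15. Cxcl11 had 1 UMI in the 3 PAM libraries together against 168 in the pair, a ratio of 154 with a 95% exact counting interval of 27.3 to 6125. Of 18 tested phagocyte receptors, 3 were higher and 1 lower with the pair than with PAM, where 14.5% and 9.22% of all tested genes were, and 3 were lower with library size alone, RLE factors, DESeq2 or thinned libraries. None of the 18 was called against LPS by edgeR or DESeq2 (1 was lower without pair replicate 1), where 1.76% of all were called. Of these 18, 7 had an unadjusted p under 0.05 and 3 (Marco, Clec4e and Fcgr2b) an adjusted p under 0.05 by edgeR. Fcgr1, the high-affinity receptor for IgG, was at 13.1, 20.1 and 33.3 CPM with PAM, 409, 460.0 and 483 with LPS and 383, 470.1 and 596 with the pair.

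Many of the genes with the largest fitted excess of LPS over PAM were unseen or nearly unseen with PAM, so their rank is not measured. BC147527, A530032D15Rik, Clic5, Trp53i11 and 2310014L17Rik had no UMI in the 3 PAM libraries. Against a floor of 3 counts over the group, BC147527 was at least 9.48-fold higher with the pair than with PAM, A530032D15Rik at least 11.3-fold, Clic5 at least 9.48-fold, Trp53i11 at least 11.9-fold and 2310014L17Rik at least 6.12-fold. In the same order, LPS was at least 9.87-, 6.91-, 6.25-, 5.92- and 3.95-fold over PAM. None of these genes was called between the pair and LPS.

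**Figure D2:**
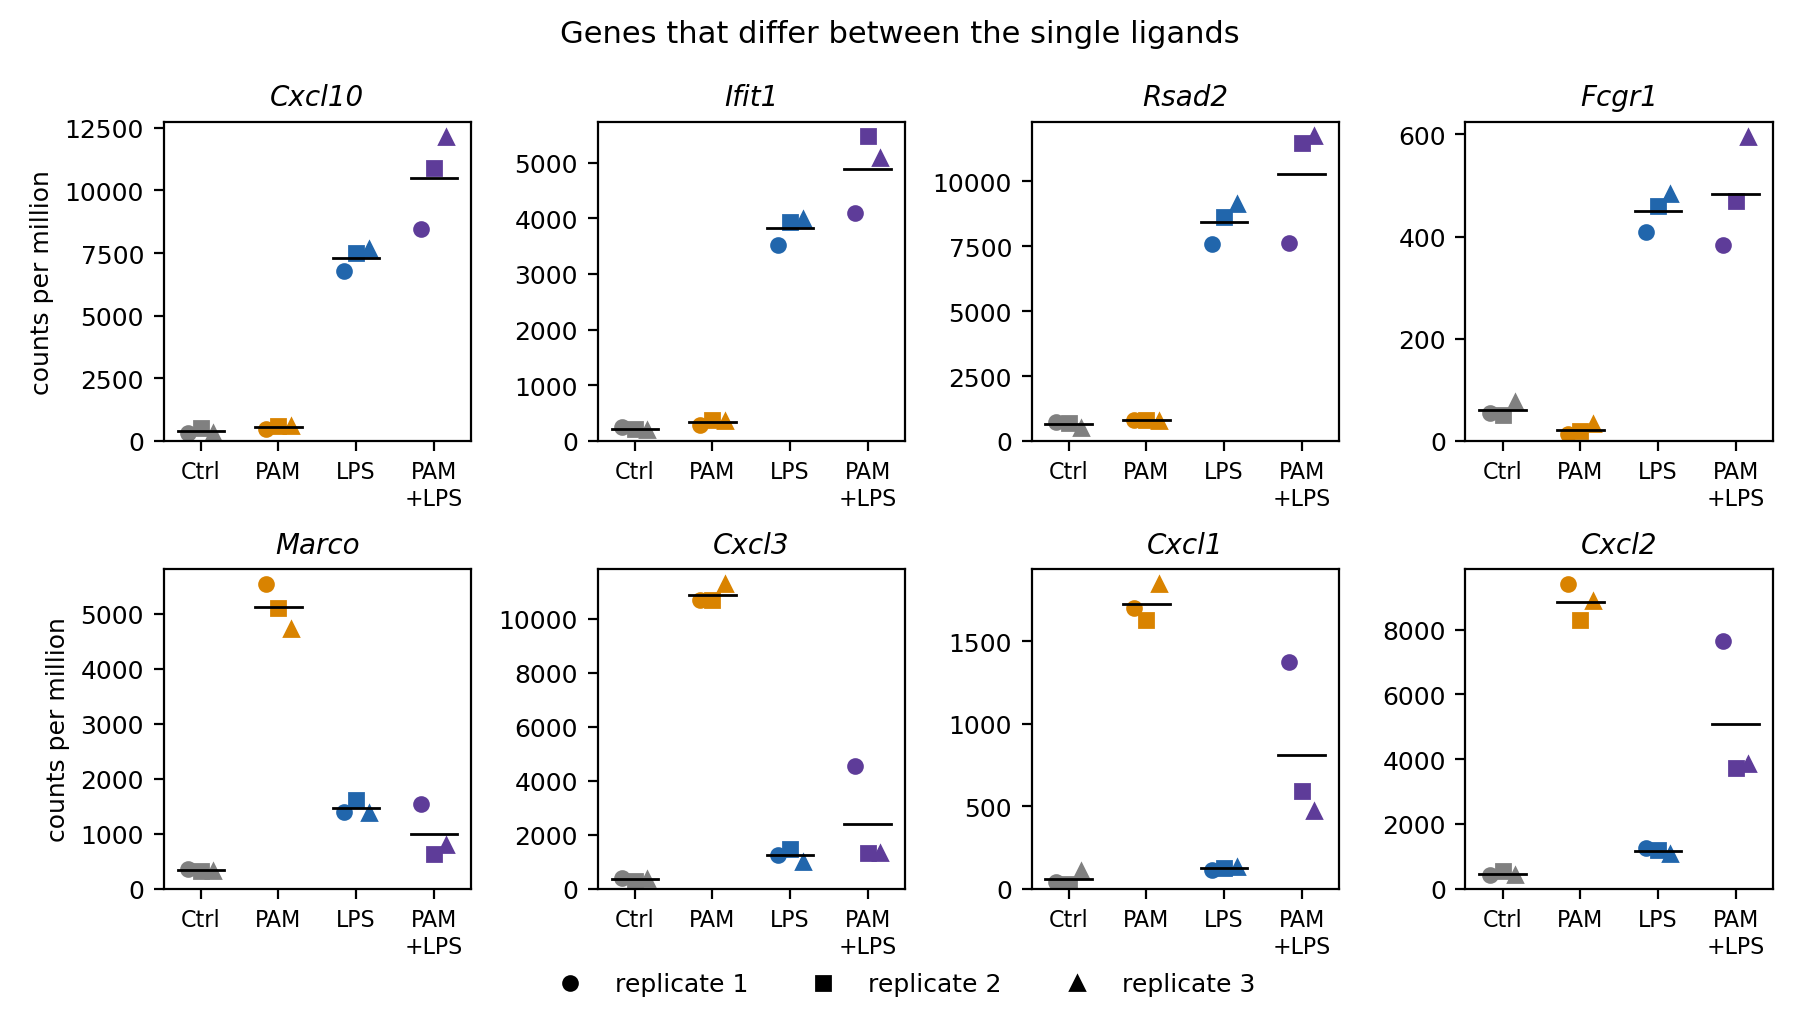
CPM in each library (points, shaped by replicate; bars are group means of 3) for 4 genes higher with LPS (top row) and 4 higher with PAM (bottom row), on linear axes that start at 0. Pair libraries lie within or above the LPS range in the top row, except replicate 1 of Fcgr1 (383 CPM, against 409 in the lowest LPS library). They lie between the single ligands for Cxcl1 and Cxcl2, and replicate 1 is the highest pair library of all 4 genes in the bottom row.

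To describe which ligand set the level of a gene, the pair was placed on a scale on which 0 is the mean log2 level with PAM and 1 the mean log2 level with LPS. The pair libraries took no part in choosing the genes, which were those called between LPS and PAM, but the PAM and LPS libraries both chose the genes and set the scale. For the 513 genes higher with LPS (10.9% of those tested), the median position was 1.13, with quartiles of 0.969 and 1.27, and 499 of them (97.3%) lay nearer to LPS. The medians of the 3 pair libraries were 0.982, 1.20 and 1.22, replicate 1 being the lowest. Of these genes 455 were called against PAM and not against LPS, 3 against LPS only (Arhgap25, Cpt1a and Papss2), 13 were called over each of them, and 42 were called against neither. Of these 13, Pou3f1 did not pass the joint rule for genes above both, in which the larger of both p-values is adjusted (0.052). For the 252 genes higher with PAM (5.34%), the median position was 0.941, with wider quartiles of 0.642 and 1.16, and 212 (84.1%) lay nearer to LPS. The library medians were 0.778, 1.03 and 0.953. Of these genes 164 were called against PAM only, 11 against LPS only, 1 lay between both ligands, 3 fell below both, and 73 were called against neither. Genes called against PAM only were thus 88.7% of the first set and 65.1% of the second. Without pair replicate 1 the medians were 1.21 and 0.978.

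**Figure D3:**
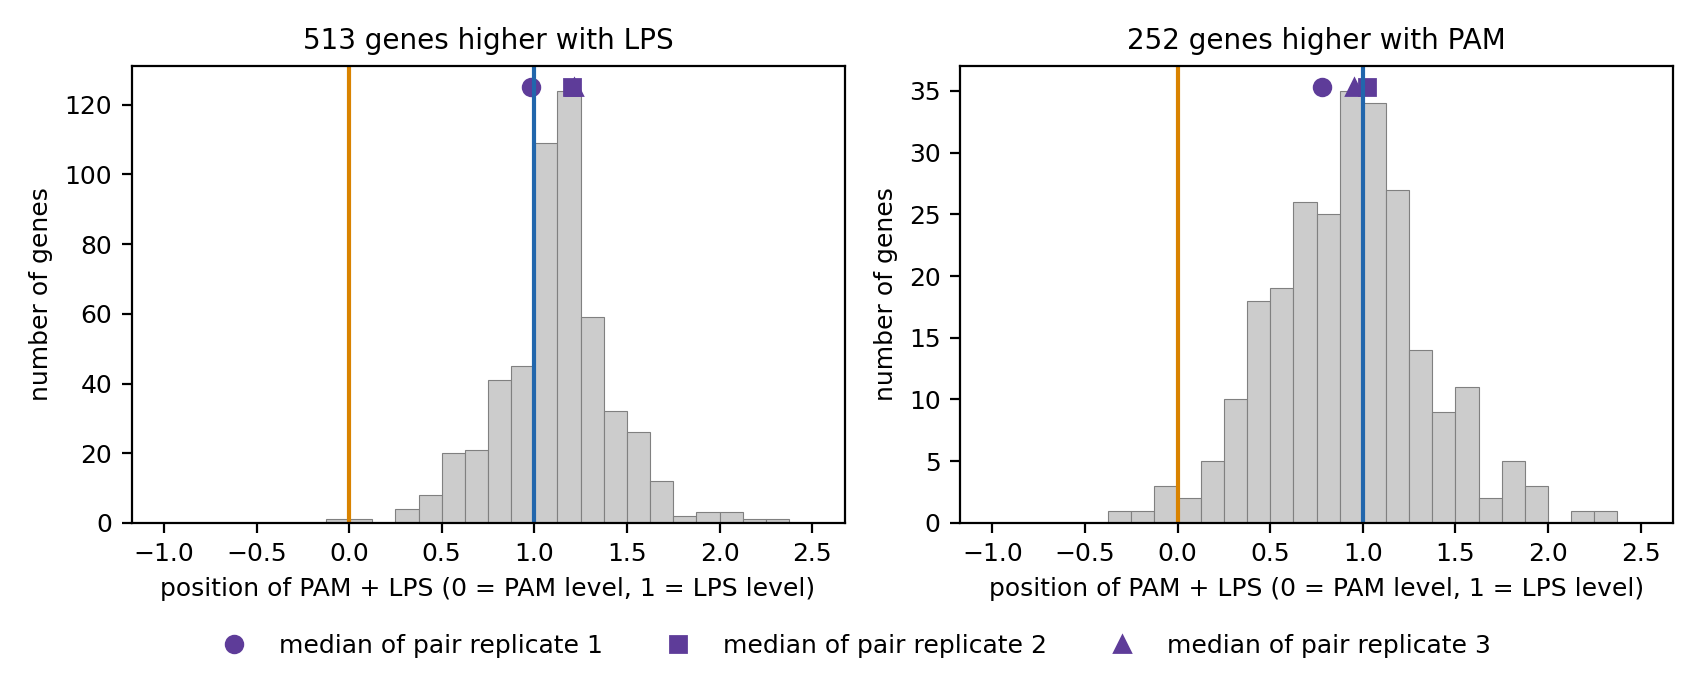
Number of genes by the position of the pair between PAM (0, orange line) and LPS (1, blue line), for 513 genes higher with LPS (left) and 252 higher with PAM (right), with positions outside -1 to 2.5 drawn at the edge. Symbols mark the median of each pair library: 0.982, 1.20 and 1.22 on the left, and 0.778, 1.03 and 0.953 on the right.

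Marco, a scavenger receptor of phagocytes, stood far lower with the pair than with PAM. It was at 360.1, 324 and 326 CPM in Ctrl, 5544, 5098 and 4723 with PAM, 1385, 1602 and 1383 with LPS and 1531, 636 and 794 with the pair. All pair libraries lay below the PAM libraries, with a log2 fold change of -2.45 ± 0.19 (adjusted p = 1.8e-27), and replicates 2 and 3 lay below the LPS libraries too. Cxcl3, a neutrophil chemokine, was at 10675, 10708 and 11279 CPM with PAM, 1236, 1479.7 and 1002 with LPS and 4529, 1309 and 1312 with the pair. Its log2 fold change was -2.27 ± 0.19 against PAM, and replicate 1 was above all other pair and LPS libraries. Without replicate 1 it was -3.05. Csf1r, the receptor for the macrophage growth factor M-CSF, was at 1378, 1307 and 1345 CPM with PAM, 610.4, 748 and 604 with LPS and 629, 641 and 759 with the pair, which differed from PAM by -0.97 ± 0.14 (adjusted p = 1.5e-09), just under the fold threshold. Cxcl5, another neutrophil chemokine, was lower with the pair than with PAM by -1.83 on the log2 scale, at 27 UMIs with PAM, 1 with LPS and 8 with the pair. That call was lost with thinned libraries, without pair replicate 2 and without PAM replicate 3.

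The neutrophil chemokines Cxcl1 and Cxcl2 lay between the single ligands. Cxcl1 was at 41.6, 24.9 and 106 CPM in Ctrl, 1699, 1629 and 1845 with PAM, 112, 127 and 129.8 with LPS and 1376, 593 and 468 with the pair, so that no pair library overlapped either single ligand. It was the only gene higher with PAM that was called lower than with PAM (-1.21 ± 0.18, adjusted p = 4.1e-09) and higher than with LPS (2.58 ± 0.26, adjusted p = 1.0e-16). Without pair replicate 3 its difference from PAM was -0.88, and the call against PAM was lost. Cxcl2 was at 9415, 8290.2 and 8884 CPM with PAM, 1258, 1203 and 1056 with LPS and 7654, 3724 and 3846 with the pair, with replicate 1 near the PAM libraries and the other replicates lower.

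The 11 genes higher with PAM that were called against LPS only were Il1b, Cxcl2, Saa3, Ptges, Ier3, Serpinb2, Cish, Dusp16, Kdm4a, Cdc42ep2 and Rab11fip1. Il1b, which encodes the precursor of interleukin-1 beta, was at 319, 362 and 259 CPM in Ctrl, 7926, 7757 and 8706 with PAM, 3432, 3636 and 3477 with LPS and 10178, 6929 and 7962 with the pair. The pair and PAM libraries overlapped (0.03 ± 0.11, adjusted p = 0.85), and both lay above the LPS libraries, the pair by 1.24 ± 0.12 (adjusted p = 5.4e-19). Saa3, an acute-phase protein, was at 12899, 10734 and 12479 CPM with PAM, 5099, 4073 and 3754 with LPS and 9631, 8553 and 12819 with the pair, where again pair and PAM overlapped. Tnf, which encodes a central inflammatory cytokine and was not among the 11, was at 7565, 8114 and 8617 CPM with PAM, 4437, 4373 and 4506 with LPS and 10442, 9536 and 9207 with the pair, 1.13 ± 0.15 over LPS (adjusted p = 1.3e-09) and 0.26 ± 0.15 over PAM (adjusted p = 0.18). The pair libraries of Tnf lay above all PAM libraries, although that difference did not pass the test. Of 13 tested genes of the inflammatory list, 6 were higher and 1 lower with the pair than with PAM, and 10 were higher than with LPS, with medians of 0.97 and 1.58, against 14.5%, 9.22% and 1.38% of all tested genes. With library size alone the counts were 4 and 2 against PAM and 8 against LPS.

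Promoters of 4 genes on different sides of this comparison are shown, since the interferon and inflammatory lists stood differently against LPS. Each is the 250 bases before the start site, read 5' to 3' on the strand of the gene from RefSeq on GRCm38.p6. Capitals mark matches, on either strand, to the interferon-stimulated response element core (GAAA, 2 bases of any kind, GAAA), the AP-1 site TGANTCA and the kappaB consensus, the binding motif of NF-kB; neighbouring kappaB matches in Cxcl10 and in Cxcl1 overlap, and the AP-1 pattern matches on both strands of the same bases. Ifit1 (chr19:34640639-34640888, plus strand) and Cxcl10 (chr5:92348890-92349139, minus strand) stood at or above the LPS level, Cxcl1 (chr5:90890995-90891244, plus strand) lay between the ligands, and Il6 (chr5:30012864-30013113, plus strand) exceeded both.
Ifit1: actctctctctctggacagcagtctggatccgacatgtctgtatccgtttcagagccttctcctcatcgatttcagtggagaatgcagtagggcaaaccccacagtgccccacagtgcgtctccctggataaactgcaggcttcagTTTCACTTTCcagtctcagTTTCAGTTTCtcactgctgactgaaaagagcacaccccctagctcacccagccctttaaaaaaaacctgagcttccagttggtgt
Cxcl10: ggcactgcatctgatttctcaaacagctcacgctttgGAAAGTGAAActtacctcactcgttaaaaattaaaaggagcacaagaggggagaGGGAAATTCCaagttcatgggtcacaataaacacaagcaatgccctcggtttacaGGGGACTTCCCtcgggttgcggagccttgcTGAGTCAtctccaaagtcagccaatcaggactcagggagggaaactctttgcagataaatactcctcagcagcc
Cxcl1: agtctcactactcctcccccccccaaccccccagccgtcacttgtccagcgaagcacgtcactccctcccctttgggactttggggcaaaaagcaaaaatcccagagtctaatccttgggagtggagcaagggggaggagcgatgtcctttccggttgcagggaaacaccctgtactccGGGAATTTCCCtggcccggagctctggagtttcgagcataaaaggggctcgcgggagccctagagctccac
Il6: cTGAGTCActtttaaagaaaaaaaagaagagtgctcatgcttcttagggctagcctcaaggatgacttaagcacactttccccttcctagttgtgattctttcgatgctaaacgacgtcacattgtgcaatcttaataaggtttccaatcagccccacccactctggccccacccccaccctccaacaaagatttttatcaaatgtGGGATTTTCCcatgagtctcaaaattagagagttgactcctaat
Windows that also took in the 50 bases after the start were found for 3614 of the 4720 tested genes. The interferon-stimulated element core was in a window of 184 (5.09%) of these, in 61 of 367 (16.6%) genes higher with LPS and in 8 of 185 (4.32%) genes higher with PAM. It was in 5 of 11 interferon response genes with a window (45.5%), in none of 11 inflammatory genes, and in 4 of 29 genes above both ligands (13.8%). The kappaB consensus was in 12.6% of all tested genes with a window, 15.5% of those higher with LPS, 10.8% of those higher with PAM, 5 of 11 (45.5%) on the inflammatory list, 4 of 11 (36.4%) on the interferon response list and 3 of 29 (10.3%) above both. The AP-1 site was in 6.64% of all, 9.81% of those higher with LPS, 6.49% of those higher with PAM, 3 of 11 (27.3%) on each of these lists and 5 of 29 (17.2%) above both. The 4 promoters shown all hold matches, which not every promoter read did. Of other genes above both, Ptgs2, Inhba and Il12a held none of these motifs, and Edn1 only the interferon-stimulated element core. Il1b, higher with PAM, held none either. A match describes the letters only.

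A group of 38 genes (0.805% of those tested) was called above both single ligands, and 10 (0.212%) below both. The pair libraries of 30 of the 38 lay above all 6 single-ligand libraries, which held for 291 (6.17%) of all tested genes. The same libraries chose the 38, so this lack of overlap is largely fixed by the choice. Replicate 1 was the lowest pair library for 33 of the 38. The count was 67 without pair replicate 1, with all 38 among them, and 17 without pair replicate 3, where Tnfsf9, Fst, Zfp36, Dusp1, Socs1, Socs3, Upp1, Sipa1l1 and Gnb4 were among those lost. It was 20 with library size alone, 25 with DESeq2 and 20 when all libraries were thinned to 61823 UMIs. The call of 11 genes held in all 16 alternatives: Il6, Il12a, Il27, Ptgs2, Ccl4, Edn1, Inhba, Irf8, Nos2, Tnip3 and U90926. For Il27 this is by the joint rule, since DESeq2 did not call it in the separate comparison with LPS.

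Among the 38 were Il6, Il1a, Ccl3 and Ptgs2 of the 13 tested inflammatory genes and Il12a, Il27, Tnfsf9 and Edn1 of 16 tested cytokines and growth factors outside that list. Of those 16, 10 were higher with the pair than with PAM and 4 than with LPS (5 without pair replicate 1), against 14.5% and 1.38% of all tested genes, with medians of 1.88 and 0.72 (1.58 and 0.62 with Il33, which had a group at 0 counts, at its bound). Il6, an inflammatory and B cell cytokine, was at 97.0, 99.8 and 182 CPM in Ctrl, 1463, 1207 and 1339 with PAM, 1369.7, 1086 and 1342 with LPS and 4283, 3809 and 4236 with the pair. The single ligands overlapped and every pair library stood well above them. The pair was 3.08-fold higher than PAM (log2 1.62 ± 0.14, adjusted p = 1.9e-23) and 3.25-fold higher than LPS (log2 1.70 ± 0.14, adjusted p = 2.1e-23). Il12a, the p35 subunit of interleukin-12, which drives type 1 helper T cells, was at 138, 141 and 133 CPM with PAM, 127, 205 and 161 with LPS and 510.3, 433 and 379 with the pair. Il12a rose by 1.64 ± 0.22 over PAM and 1.36 ± 0.21 over LPS, with no overlap. Il12b, which encodes the partner subunit p40, was at 32.8, 25.1 and 27.8 CPM with PAM, 74.4, 44.3 and 62.6 with LPS and 228, 107 and 70.9 with the pair. It rose over PAM (2.01 ± 0.60, adjusted p = 0.0049; 0.056 without pair replicate 1) and its difference from LPS was 0.96 ± 0.51 (adjusted p = 0.39).

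Il27, the p28 subunit of the immunoregulatory cytokine interleukin-27, had 1 UMI over the 3 PAM libraries, 6 over the LPS libraries and 52 over the pair libraries. The ratio of pair to PAM was 47.7 with a 95% exact counting interval of 8.19 to 1921, and the pair exceeded LPS by 2.92 ± 0.56 (adjusted p = 8.6e-05). Il1a, which encodes the alarmin interleukin-1 alpha, was at 2526, 2172 and 2289 CPM with PAM, 1556, 1585 and 1459 with LPS and 5849.8, 4985 and 5091 with the pair, so that the pair was highest and LPS lowest in every library; its call was lost with library size alone. Tnfsf9, the ligand of the T cell receptor 4-1BB, was at 26.2, 80.4 and 55.6 CPM with PAM, 37.2, 27.7 and 31.3 with LPS and 100.2, 171 and 188 with the pair. Il10, an anti-inflammatory cytokine, had 1 UMI with PAM, 4 with LPS and 22 with the pair. It was called against both ligands singly, but the call against LPS (adjusted p = 0.049) was lost in 10 of 12 alternatives and it did not pass the joint rule. Its pair libraries were uneven at 9.11, 64.1 and 31.9 CPM. Ifnb1, the gene of interferon beta, was at 13.1, 15.1 and 33.3 CPM with PAM, 0, 22.2 and 17.9 with LPS and 27.3, 58.8 and 24.8 with the pair. The differences of Ifnb1 from PAM (0.79 ± 0.60, adjusted p = 0.33) and from LPS (1.26 ± 0.64, adjusted p = 0.35) did not pass the test at 11, 8 and 21 UMIs. With HMW in both groups Ifnb1 was called over PAM (2.27 ± 0.78, adjusted p = 0.029).

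**Figure D4:**
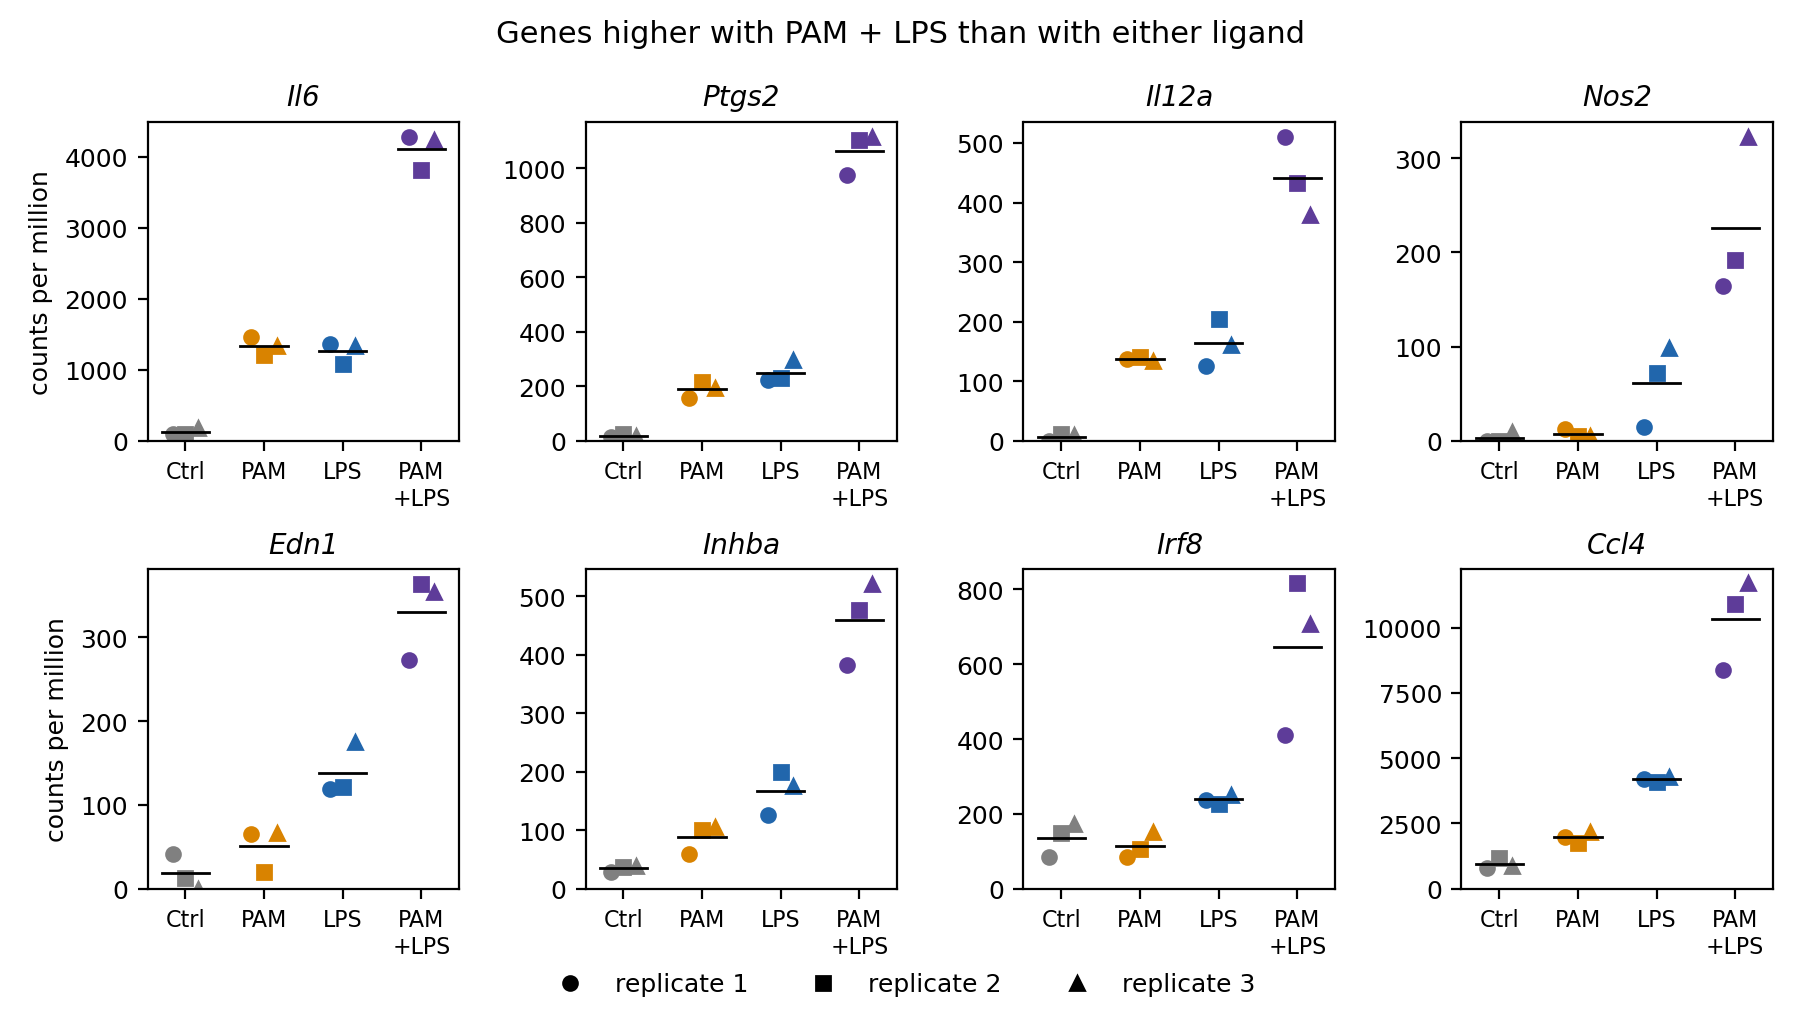
CPM in each library (points, shaped by replicate; bars are group means of 3) for 8 genes called above both single ligands, on linear axes that start at 0. No pair library overlaps any PAM, LPS or Ctrl library in the 8 genes; replicate 1 is the lowest pair library of Ptgs2, Nos2, Edn1, Inhba, Irf8 and Ccl4.

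Genes of other secreted mediators were also among the 38. Ptgs2, the inducible cyclooxygenase that makes prostaglandin precursors, was at 13.9, 24.9 and 19.2 CPM in Ctrl, 157, 216 and 194 with PAM, 223, 233 and 295 with LPS and 975, 1106 and 1117 with the pair. It rose 5.60-fold over PAM (adjusted p = 6.3e-23) and 4.21-fold over LPS (adjusted p = 1.8e-17). Edn1, the vasoconstrictor endothelin-1, was at 65.6, 20.1 and 66.7 CPM with PAM, 119, 122 and 175 with LPS and 273, 363 and 355 with the pair. Inhba, a subunit of activin A, was at 59.0, 101 and 106 CPM with PAM, 127, 199.5 and 175 with LPS and 383, 475 and 521 with the pair, and exceeded PAM by 2.38 ± 0.29 and LPS by 1.47 ± 0.26. Fst, which encodes the activin-binding protein follistatin, was at 19.7, 20.1 and 5.56 CPM with PAM, 7.44, 11.1 and 17.9 with LPS and 27.3, 102 and 106 with the pair, and lost its call without pair replicate 3 and with thinned libraries.

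The inflammatory chemokines Ccl3 and Ccl4 were both above both ligands but differed in which single ligand came next. Ccl3 was at 4822, 4339 and 4711 CPM with PAM, 3461, 3165 and 3490.1 with LPS and 8483, 10989.6 and 10777 with the pair. Ccl4 was at 1968, 1755 and 2178 CPM with PAM, 4213, 4090.1 and 4291 with LPS and 8392, 10909 and 11695 with the pair. The next level down was PAM for Ccl3 and LPS for Ccl4, without overlap in either. The call of Ccl3 was lost with library size alone, and the counting of reads shared between close relatives was not stated.

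Regulators of signalling among the 38 were Irf8, Socs1 and Socs3 of 15 tested interferon signalling genes and Tnip3, Zfp36 and Dusp1 of 19 tested NF-kB subunits and feedback genes. Irf8, a transcription factor of dendritic cell and macrophage identity, was at 85.3, 106 and 150.0 CPM with PAM, 238, 227 and 251 with LPS and 410.0, 817 and 709 with the pair. It rose by 2.54 ± 0.23 over PAM and 1.48 ± 0.20 over LPS. Socs1 and Socs3, feedback inhibitors of JAK and STAT signalling, were at 392, 422 and 486 CPM and 765, 844 and 893 CPM with the pair. Their smaller differences, 1.05 ± 0.20 for Socs1 (over LPS) and 1.01 ± 0.16 for Socs3 (over PAM), lay close to the fold threshold, and both lost the call with RLE factors, library size alone and DESeq2. Of the 19 NF-kB subunits and feedback genes 5 were higher with the pair than with PAM (14.5% of all) and 3 than with LPS (1.38% of all), the latter being 4 without pair replicate 1 and 1 with library size alone or thinned libraries. Tnip3, an inhibitor of NF-kB signalling, was at 243, 206 and 239 CPM with PAM, 194, 249 and 175 with LPS and 519, 743 and 652 with the pair, while its Ctrl libraries stood at 277, 237 and 144. Zfp36, which promotes decay of cytokine mRNAs, was at 249, 287 and 311 CPM with PAM, 365, 410.1 and 443 with LPS and 574, 929.6 and 1025 with the pair. Dusp1, a phosphatase of MAP kinases, had overlapping libraries (54.7, 166 and 156 CPM with the pair against 104, 49.9 and 44.7 with LPS), and its call was lost in 11 of 16 alternatives.

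Among 23 tested metabolic effectors, 7 were higher and 5 lower with the pair than with PAM, where 14.5% and 9.22% of all tested genes were. Against LPS 3 were higher and 1 lower (5 and 1 without pair replicate 1), with 1.38% and 0.381% of all. Nos2, the inducible nitric oxide synthase, was at 13.1, 5.03 and 5.56 CPM with PAM, 14.9, 72.0 and 98.4 with LPS and 164, 192.3 and 323 with the pair. It exceeded PAM by 4.87 ± 0.51 and LPS by 1.82 ± 0.32 (adjusted p = 1.3e-05), and the LPS libraries were uneven. Upp1, uridine phosphorylase, was at 96.8, 183 and 166 CPM with LPS and 118, 406 and 355 with the pair, where replicate 1 overlapped LPS. The 5 lower genes were Srxn1, Gclm, Txnrd1, Hmox1 and Slc7a11, known for defence against oxidative stress, with log2 fold changes of -2.12, -2.69, -1.65, -1.41 and -1.07 against PAM. Slc7a2, a transporter of arginine, stood at 2014, 1805 and 1778 CPM with PAM, 2218, 2056 and 1933 with LPS and 2059, 2602 and 2514 with the pair, and was not called against either.

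The other genes above both with the largest smaller difference were U90926, a long noncoding transcript, at 401, 497 and 716 CPM with the pair, and Sipa1l1, Gnb4 and Mier3, whose pair levels were 73.3 ± 28.7, 87.1 ± 15.0 and 116 ± 45.9 CPM (mean ± SD, n = 3). U90926 was at 197, 161 and 117 CPM with PAM and 96.8, 144 and 161 with LPS. Sipa1l1, Gnb4 and Mier3 lost their call when libraries were thinned to equal totals. Slc28a2, a nucleoside transporter, had 1 UMI with PAM, 39 with LPS and 135 with the pair.

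The 10 genes below both were of low to moderate level, and none kept its call in every alternative. With libraries thinned to equal totals none of the 10 was called, without pair replicate 1 the count was 19 with all 10 among them, without pair replicate 3 it was 4, without pair replicate 2 it was 6 and without LPS replicate 2 it was 5. The pair libraries lay below all single-ligand libraries for 9 of them, as for 184 (3.90%) of all genes. Here too the choice on the same libraries largely fixed the lack of overlap. Myo1f, a myosin of blood cells, was at 706, 811 and 749 CPM in Ctrl, 505, 689 and 422 with PAM, 290.3, 327 and 353 with LPS and 182, 144 and 149 with the pair. It fell by 1.81 on the log2 scale against PAM and by 1.08 against LPS, with no overlap. Sla, an adaptor that limits receptor signalling, was raised by PAM from 69.3, 87.3 and 86.4 to 341, 367 and 406 CPM, and was at 149, 172 and 161 with LPS and 109, 64.1 and 46.1 with the pair. Dok2, an adaptor that dampens receptor kinase signalling, was at 197, 166 and 228 CPM with PAM, 37.2, 99.8 and 53.7 with LPS and 0, 5.34 and 14.2 with the pair. Srxn1, sulfiredoxin, was at 243, 292 and 328 CPM with PAM, 141, 205 and 125 with LPS and 91.1, 48.1 and 67.4 with the pair. The mitochondrial genes Etfb and Aurkaip1 and the signalling inhibitor Rgs19 were at 8.44 ± 9.19, 15.6 ± 7.50 and 21.4 ± 15.6 CPM with the pair (mean ± SD, n = 3).

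Of 21 tested receptors and adaptors, 1 was higher (Tlr6) and 3 were lower (Irak1, Irak3 and Tollip) with the pair than with PAM, where 23.7% of all tested genes were called in either direction. With thinned libraries none of the 21 was called against PAM, and without pair replicate 1 there were 2 lower. None of the 21 was called against LPS by edgeR or DESeq2, where 1.76% of all were, and 1 (Cd14) had an unadjusted and an adjusted p under 0.05 by edgeR at less than the fold threshold. Tlr2 was at 13.9, 99.8 and 96.0 CPM in Ctrl, 439.6, 478 and 372 with PAM, 409, 338 and 309 with LPS and 501, 278 and 301 with the pair, and the stimulated groups overlapped. Cd14, which hands LPS and lipopeptides to TLR4 and TLR2, was at 346, 337 and 403 CPM in Ctrl, 2047, 2303 and 2461 with PAM, 1385, 1236 and 1253 with LPS and 1786, 1517 and 2074 with the pair. Tlr4 was at 6.56, 10.1 and 22.2 CPM with PAM, 14.9, 22.2 and 13.4 with LPS and 0, 37.4 and 14.2 with the pair, and differences were not detectable at this depth.

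A further test asked whether the log2 effects of both ligands over Ctrl added up. The interaction, which is the pair minus both ligands plus Ctrl, was called (adjusted p under 0.05) for 441 genes (9.34%), 164 (3.47%) positive and 277 (5.87%) negative. Without the filter on low counts 70 were positive and 281 negative, and with thinned libraries 55 and 147. Of 13 inflammatory genes 9 were negative and none positive, with a median of -1.63 against -0.06 over all genes. Il6, though 3.08-fold above PAM, had an interaction of -1.63 ± 0.30 (adjusted p = 8.1e-06). Of the 38 genes above both, 4 had a positive interaction, 5 a negative one and 29 neither. Irf8, Tnip3, Zfp36 and Mier3 were the 4 positive ones, at 1.76 ± 0.42, 1.55 ± 0.34, 0.90 ± 0.30 and 2.66 ± 0.88, and none of them was called between PAM and Ctrl. The interactions of Zfp36 and of Mier3 were each lost in 10 of 19 alternatives (Mier3 was at 2.01 without PAM replicate 2), and those of Irf8 and Tnip3 in none of the 19. The 4 negative interactions of smallest p were Il1b (-3.47 ± 0.21), Slc7a2 (-3.46 ± 0.22), Marco (-4.56 ± 0.31) and Clec4e (-2.87 ± 0.18), a receptor for mycobacterial glycolipid. They were not the largest in size, since estimates over all genes tested reached -7.67. Slc7a2 rose over Ctrl by 3.68 with PAM, 3.83 with LPS and 4.05 with the pair on the log2 scale, and Clec4e by 3.34, 2.72 and 3.18. Of 15 interferon response genes 1 was called, Mx1 at -0.96 ± 0.23, and that call was lost without Ctrl replicate 3.

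The 4 positive interactions of smallest p were in genes that were lower with PAM than in Ctrl. Lgals3, galectin-3, was at 3975, 4191 and 3869 CPM in Ctrl, 1024, 1423 and 1245 with PAM, 1504, 1773 and 1812 with LPS and 1749, 1592 and 1432 with the pair, an interaction of 1.59 ± 0.17. Gpx1, glutathione peroxidase, was at 1704, 1871 and 2007 CPM in Ctrl, 617, 583 and 683 with PAM, 484, 659.5 and 510.1 with LPS and 601, 518 and 472 with the pair. The stimulated groups lay far below Ctrl in both genes, and neither was called between the pair and a single ligand. Itm2b and Atp6v0d2, the latter a subunit of the proton pump of lysosomes, had interactions of 1.36 ± 0.18 and 2.54 ± 0.35.

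The 9 libraries with HMW gave a view of the pair that did not enter the choice of these genes. There the pair was called against PAM + HMW in 424 genes (8.98%), against LPS + HMW in 21 (0.445%), and the references differed in 372 (7.88%). Genes above both numbered 3 (0.0636%): Ptgs2, Inhba and Edn1. All 3 were among the 38, and Edn1 lost the call in 8 of 16 alternatives, among them DESeq2 (adjusted p = 0.0814). None was called below both (0.00%), by edgeR or by DESeq2, with 45 genes at an unadjusted p under 0.05. Of the 38 genes, 34 were above both references in sign and the libraries of 22 did not overlap, as for 182 (3.86%) of all genes. The median of the smaller of both log2 differences was 0.592, against 1.36 in the libraries that chose the genes. The exceptions in sign were Nupr1, Ifi27l2a, Upp1 and Ms4a4c. Of the 10 genes below both, 8 kept the sign and 2 did not overlap, as for 112 (2.37%) of all genes below.

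**Figure D5:**
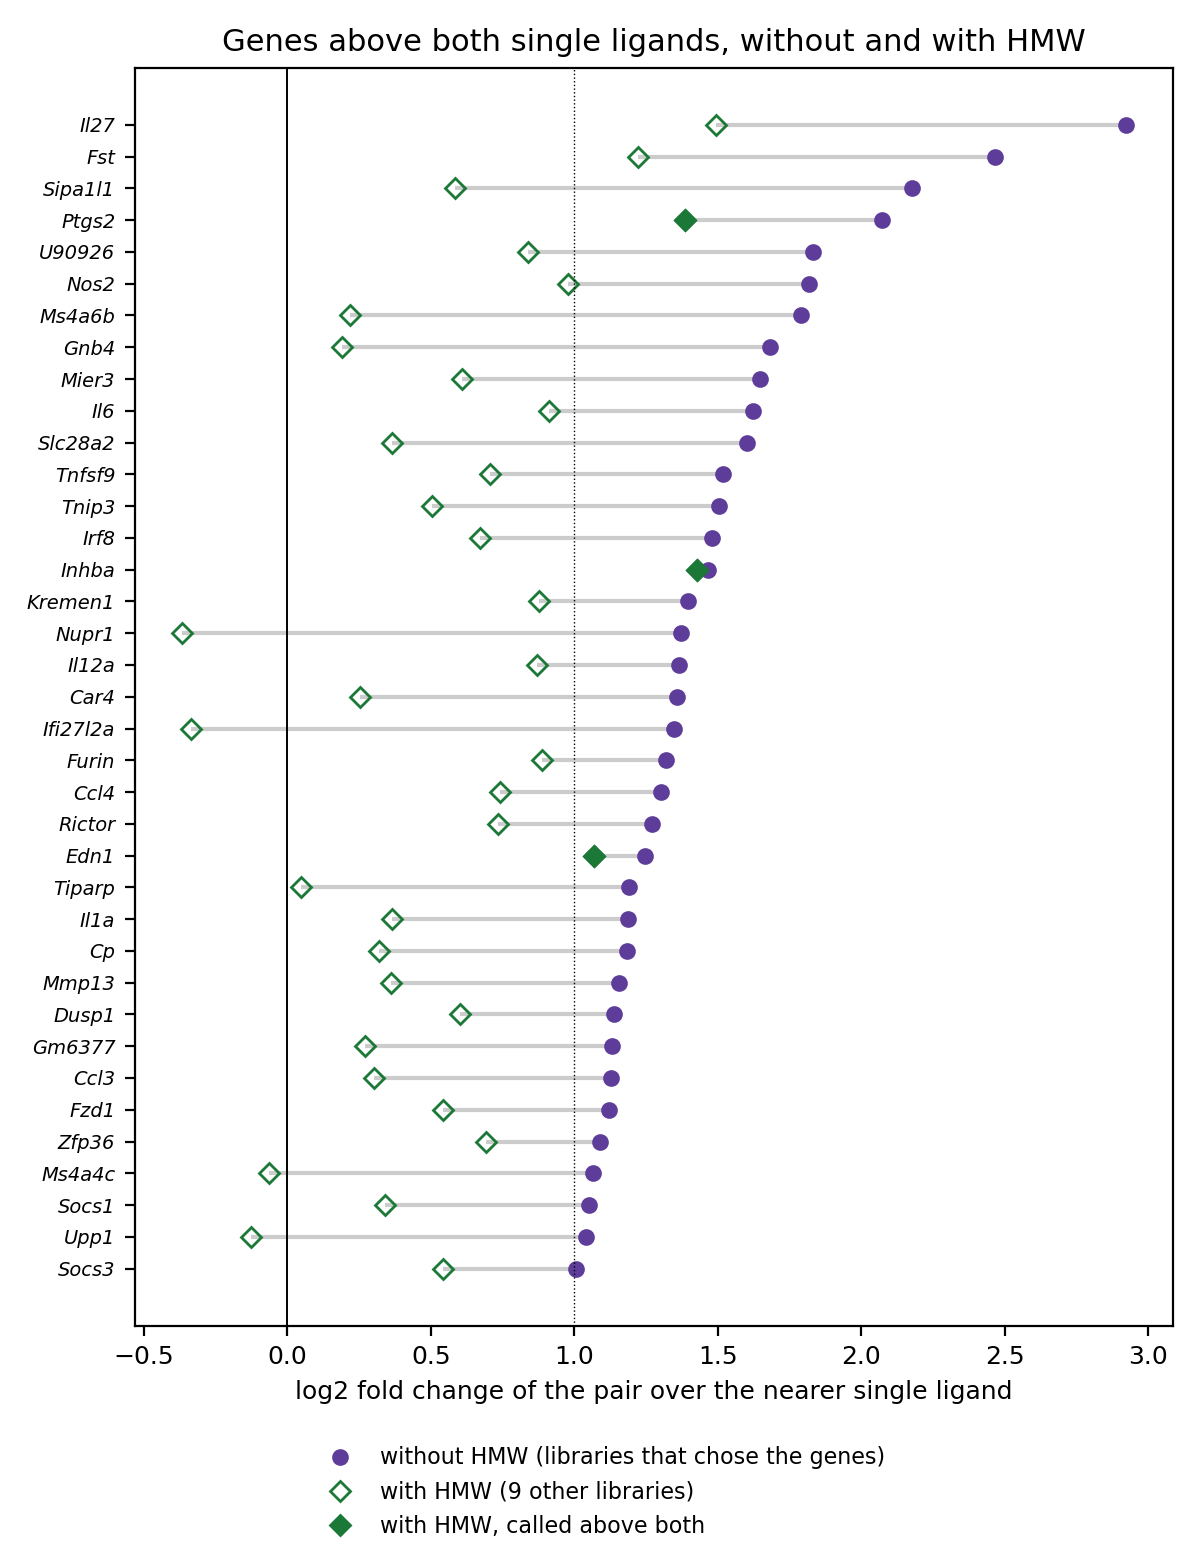
Log2 fold change of the pair over the nearer single ligand for 37 of the 38 genes above both, without HMW (circles) and with HMW in all 3 groups (diamonds, filled where called). The vertical dotted line is the fold threshold of 1; 33 of the 37 diamonds lie above 0, and Ptgs2, Inhba and Edn1 are called.

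Ptgs2 was at 407, 420.4 and 395 CPM with PAM + HMW, 263, 327 and 393 with LPS + HMW and 1196, 853 and 1137 with all 3 ligands. Inhba was at 161, 157 and 144 CPM with PAM + HMW, 146, 256 and 178 with LPS + HMW and 709.9, 485 and 408 with all 3. Both genes were highest with all 3 ligands, without overlap. Il6 was at 2155, 2156 and 2259 CPM with PAM + HMW, 1399.6, 1447 and 1464 with LPS + HMW and 4200.0, 3574 and 4598 with all 3. It exceeded PAM + HMW by 0.91 ± 0.13 (adjusted p = 2.1e-09), under the fold threshold, and LPS + HMW by 1.52 ± 0.14. Its level with PAM + HMW was 0.72 ± 0.14 higher on the log2 scale than with PAM alone (adjusted p = 4.4e-05).

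Adding HMW to PAM changed 83 genes (1.76%), 79 (1.67%) of them upwards. Adding it to LPS changed none (0.00%) by edgeR or DESeq2, with 218 genes at an unadjusted p under 0.05. Adding it to the pair changed 4 (0.0847%) by edgeR and 0 by DESeq2. The excess of the pair over PAM differed between the sets without and with HMW for 4.07% of genes, being larger without HMW for 178 (3.77%) and smaller for 14 (0.297%), and for 13 of the 38. The excess over LPS differed for none (0.00%) by edgeR or DESeq2, with 307 genes at an unadjusted p under 0.05. On the scale from PAM to LPS, with HMW in all groups, the median position was 0.982 for the 258 genes (5.47%) higher with LPS + HMW and 0.708 for the 114 (2.42%) higher with PAM + HMW. The latter libraries lay at 0.697, 0.692 and 0.740, and 78 of the 114 genes (68.4%) lay nearer to LPS + HMW.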

How the data were processed

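Per the labels' protocols, total RNA of each well was reverse transcribed with template switching, and cDNA was pooled, amplified, tagmented and sequenced on a NextSeq instrument. The deposited values are whole-number UMI counts per gene symbol, made by the authors without normalization. The submitters' processing notes name BWA 0.7.15 and mm10; the annotation, UMI collapsing, strand and treatment of multi-mapped reads are not given in the sources used here, so genes with close relatives or overlapping neighbours carry that uncertainty. The file holds no mitochondrial symbols.

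The analysis used edgeR 4.0.16 under R 4.3.3: filterByExpr by group (4720 of 23481 genes, 95.7% of UMIs), TMM factors, and a quasi-likelihood fit with 1 coefficient per group over all libraries (128 residual degrees of freedom, common biological coefficient of variation 10.3%). Calls needed an adjusted p (Benjamini-Hochberg over all tested genes) under 0.05 and a log2 fold change of 1 or more in size; interactions needed the p alone. Genes above or below both ligands had to pass both comparisons, with the larger p adjusted. Errors are standard errors (SE) of log2 fold changes unless named. Positions used mean log2 CPM with a prior count of 2. Low counts were compared at a floor of 3 counts or with 95% intervals, which cover counting error only. The fit was also run on simulated counts, whose outcome is not reported here. Alternatives were DESeq2 1.42.0, RLE factors, library size alone, no filter, thinning, a replicate block, the groups compared alone, no fold threshold and each library left out.

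The rule for named genes took 12 genes by name, list members above or below both ligands, the largest changes (12 above both, 8 below both, 6 for each ligand over the other) among genes of at least 20 CPM without overlap, the 4 interactions of smallest p of each sign, genes between both ligands, and the 3 most abundant members of each list. Other genes were named after their values were seen. A few genes that fall under the rule or the lists are not reported here, though they stay in the counts. The members and gene lists were chosen with earlier results of these data known, and a list's counts are not independent evidence.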

Additional observations from a re-analysis of the deposited data

Results flagged for a closer look

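For 15 of the 48 genes above or below both ligands, the excess of the pair over PAM differed between the libraries without and with HMW, by edgeR's test of the difference itself. The genes were chosen on the libraries without HMW, so a larger difference there is in part fixed by the choice. The difference of the 2 log2 fold changes, without minus with HMW, was 0.71 for Il6 (adjusted p = 0.0093), 1.10 for Ptgs2 (0.0092), 0.82 for Il1a (0.000738), 0.83 for Ccl3 (0.00256) and 1.51 for Ccl4 (1.75e-08). For these 5 genes PAM + HMW was higher than PAM alone, from 0.63 for Ccl3 to 1.22 for Ccl4 on the log2 scale. The difference of the 2 log2 fold changes was 1.43 for Socs1 (0.00155), 0.92 for Zfp36 (0.0081), 0.88 for Mmp13 (0.015), 1.67 for Tiparp (0.0075) and 2.39 for Ms4a4c (0.000288). Car4 gave 2.32 (0.0105), Nupr1 2.32 (0.015) and Slc28a2 4.84 (0.0041), where Slc28a2 had 1 UMI in the PAM libraries. Of the genes below both, Etfb gave -2.60 (0.048) and Rgs19 -1.80 (0.032). Rgs19 was at 21.4 ± 15.6 CPM with the pair and 69.2 ± 3.39 with all 3 ligands (mean ± SD, n = 3). The cause of these differences was not tested.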

How the results depend on the processing

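Of 210 results on single genes, none changed its direction in the alternatives run and 118 kept their call in all of theirs. All had been called in the main fit of the same counts, so a kept direction was largely fixed in advance. Alternatives that gave a gene no adjusted p were left out. The balance of higher and lower genes did turn with the scaling. Thinning to equal totals gave 429 genes for PAM against Ctrl, 590 for the pair against PAM, 28 higher and 2 lower for the pair against LPS, 373 for LPS against PAM, 202 interactions, 20 genes above both and 0 below both, where 10 were called. Library size alone turned 683 higher and 435 lower than with PAM into 517 and 784. DESeq2 gave 40 higher than with LPS (against 65) and 25 above both, library size alone 37 higher and 39 lower than with LPS, 20 above and 22 below both, and no filter 11 lower than with LPS (against 18) and 6 below both. With no fold threshold 162 genes were higher and 30 lower than with LPS, 112 above both, 19 below both and 16 above both with HMW. For the pair against Ctrl, the 889 higher and 648 lower genes became 771 and 860 with RLE factors, 711 and 827 with DESeq2, and 617 and 1263 with library size alone. Leaving out each library in turn gave 49 to 120 genes for the pair against LPS (42 to 92 higher and 7 to 28 lower, fewest without pair replicate 3, most without pair replicate 1), 17 to 67 above both, 4 to 19 below both, 890 to 1128 for the pair against PAM, 657 to 723 for LPS against PAM, 529 to 590, 971 to 1087 and 1316 to 1534 for PAM, LPS and the pair against Ctrl, 328 to 433 interactions, 2 to 5 above both with HMW and 0 below both with HMW. Leaving out each library gave medians of position of 1.09 to 1.21 and 0.870 to 0.978; library size alone gave 1.04 and 1.03, and thinning 1.10 and 0.837. Replicate numbers did not pair the libraries: deviations from the group means correlated at -0.012 to 0.033 over 9 same-numbered pairs. Depth did follow the number, with replicate 1 the shallowest library of every group compared here. The replicate block moved calls of the pair to 1123 against PAM, 84 against LPS, 40 above both and 10 below both. Depth limits genes of a few UMIs: Tlr4, at 7, 9 and 11 UMIs with PAM, LPS and the pair, showed no detectable difference.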

Other observations

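None of 8 tested genes of antigen presentation on MHC class II was called in the pair against PAM or LPS by edgeR or DESeq2, where 23.7% and 1.76% of all tested genes were called, with 4 and 2 at an unadjusted p under 0.05 and 2 (Cd74 and Ctss) at an adjusted p under 0.05 against PAM by edgeR. H2-Aa, an MHC class II chain, was at 2270.1, 2468 and 2239 CPM with PAM, 2278, 2394 and 2461 with LPS and 2305, 2794 and 2925 with the pair, a difference of 0.21 ± 0.10 (SE) against PAM (adjusted p = 0.089). Ctss, a protease that trims the invariant chain, was at 6141, 6822 and 6217 CPM with PAM, 8903, 8313 and 9177 with LPS and 7745, 11080.4 and 11476 with the pair.

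Of 16 tested genes of cholesterol synthesis and transport, 5 were lower with the pair than with PAM (among them Fdps and Sqle, enzymes of sterol synthesis) and 1 was higher, where 9.22% and 14.5% of all tested genes were. With thinned libraries 2 were lower. None was called against LPS by edgeR or DESeq2 (1.76% of all), with 3 at an unadjusted p under 0.05. Abcg1, which exports cholesterol, was the higher one, at 112, 151 and 94.5 CPM with PAM, 328, 371 and 528 with LPS and 219, 502 and 294 with the pair. Scd2, a fatty acid desaturase, had 36 UMIs with PAM, 2 with LPS and 2 with the pair, a ratio of PAM to pair of 19.6 with a 95% exact counting interval of 5.05 to 168. Fads1, another desaturase, had 19 UMIs with PAM and none with the pair, at least 6.90-fold lower against a floor of 3 counts over the group. Of 5 tested cell cycle genes Tubb5, a tubulin, was lower with the pair than with PAM (-1.74 ± 0.22, adjusted p = 2.1e-12).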
